A study of Mus musculus with 130 samples.

Results

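10 genes of meiosis and germ cell differentiation were followed across 10 RNA-seq libraries made from mouse embryonic stem cells: Smc1b, Rec8, Stag3, Sycp1, Sycp3, Hormad1, Tex11, Stra8, Sohlh2 and Taf7l. They were taken by name from the deposited gene tables, and all 10 were found among the 52550 genes of each table. Embryonic stem cells are self-renewing cultured cells derived from the early embryo, here grown on gelatin in serum with leukemia inhibitory factor. 3 libraries came from the line TT2 (C57BL/6xCBA): wild-type cells (WT TT2), cells lacking G9a that carry a G9a transgene with the changes Y1120V and Y1207F (G9a CM, clone G7), and cells labelled G9a-/-;GLP-/- (G9a/GLP DKO, also 1 clone), called the library labelled DKO from here on because its RNA did not settle the label for G9a. 3 others came from the line J1 (129S4/SvJae): wild-type cells (WT J1), Dnmt 3a/3b-/- cells (Dnmt3a/3b DKO) and Dnmt1/3a/3b-/- cells (Dnmt1/3a/3b TKO). The other 4 were wild-type TT2 cells given UNC0638, an inhibitor of G9a and GLP, and collected on day 2, 4 or 14, and the DMSO control of that series (inhibitor control). The sample titles give the dose of UNC0638 as 250 nM and the treatment protocol as 250 µM, and the labels state neither the day of the control nor whether the day 14 cells were treated throughout. The labels do not say what drives the transgene. Each group was 1 library, and each G9a mutant was 1 clone, so no spread between cultures could be measured and every interval below covers counting error only.

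In meiosis, replicated chromosomes are folded along a protein axis whose cohesin rings contain germline subunits, and paired homologues are joined by the synaptonemal complex. Smc1b, Rec8 and Stag3 encode the cohesin subunits, Hormad1 and Sycp3 the axis, Sycp1 the zipper between homologues, and Tex11 a factor of recombination and synapsis. Stra8 marks and promotes entry into meiosis downstream of retinoic acid, Sohlh2 is a helix-loop-helix transcription factor of early germ cells, and Taf7l is a germline form of a subunit of the general transcription factor TFIID. Embryonic stem cells do not undergo meiosis, and many such genes are known to be held low there by DNA methylation at CpG-rich promoters, by histone H3 lysine 9 methylation from G9a and GLP, and by a Polycomb complex (PRC1.6) whose E2F6 and MGA subunits recognise E2F and E-box motifs.

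The promoters are shown because the mutants lack enzymes that act on CpG sites and on promoter chromatin. RefSeq windows of 250 bases before to 50 bases after the annotated start (GRCm38.p6) were found for 9 of the 10 genes, all but Tex11. The following stretches are the 150 bases just before the start, 5′ to 3′ on the strand of the gene, for 5 genes on which the results turn. Capitals mark the E-box CACGTG, the E2F motif TCCCGC on either strand (GCGGGA on the other) and its longer form GGCGGGAA, which overlaps it.
Hormad1, chr3:95559527-95559676, plus strand: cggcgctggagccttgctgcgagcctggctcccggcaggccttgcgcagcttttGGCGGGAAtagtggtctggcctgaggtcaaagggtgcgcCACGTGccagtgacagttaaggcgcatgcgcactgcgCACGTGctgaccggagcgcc
Sycp3, chr10:88459437-88459586, plus strand: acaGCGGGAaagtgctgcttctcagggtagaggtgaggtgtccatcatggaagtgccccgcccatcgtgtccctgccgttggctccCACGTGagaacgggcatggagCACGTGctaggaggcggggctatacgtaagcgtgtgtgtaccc
Smc1b, chr15:85131958-85132107, minus strand: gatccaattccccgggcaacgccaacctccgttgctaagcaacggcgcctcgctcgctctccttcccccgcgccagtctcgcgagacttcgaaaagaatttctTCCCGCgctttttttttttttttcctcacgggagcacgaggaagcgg
Stra8, chr6:34920798-34920947, plus strand: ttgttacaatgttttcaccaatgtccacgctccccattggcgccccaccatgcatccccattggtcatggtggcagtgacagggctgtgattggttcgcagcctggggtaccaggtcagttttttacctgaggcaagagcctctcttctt
Sohlh2, chr3:55181894-55182043, plus strand: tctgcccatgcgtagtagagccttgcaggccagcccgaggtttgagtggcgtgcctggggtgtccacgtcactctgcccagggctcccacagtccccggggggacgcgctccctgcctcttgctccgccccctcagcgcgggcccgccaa
Hormad1 and Sycp3 each held 2 E-boxes and 1 E2F motif in their windows, and Smc1b held 1 E2F motif. Stra8 and Sohlh2 held neither in these windows. Over the 9 genes, 5 windows held the E-box, 6 the E2F motif and 1 the longer form (Hormad1), against 7.15%, 20.0% and 2.19% of all 32817 RefSeq windows of the same length. The number of CG dinucleotides per 300-base window ran from 10 in Stra8 to 30 in Stag3, and the median over all windows was 7 (quartiles 3 and 20). The windows of Stra8 and Stag3 lie inside the RefSeq spans of these genes, which begin at bases 34920163 and 138272514. They need not cover every start of these genes. Each motif contains a CG, and all 9 genes had more CG than the median window, so the motif shares and the CG numbers are linked. The background windows were not matched for CG. A motif match is a description of the letters, and binding at these sites was not measured here.

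Some libraries stood apart before any member was considered. Total counts ran from 11436808 in the library labelled DKO to 25609600 in WT TT2. Levels are CPM, counts scaled to a common library size with TMM factors, and a gene is said to be higher or lower when log2(CPM + 1) differed by at least 1, the level was at least 1 CPM in either library and the exact 95% interval of the count ratio excluded 1 (the size rule). The inhibitor control and WT TT2 are both labelled wild-type TT2, and yet 25.2% of 13667 genes were higher and 22% lower in the former. The gap between gene length and effective length, which RSEM sets from the fragment length, had a median of 150 to 198 bases in the 6 line libraries and of 251 to 275 bases in the 4 inhibitor-series libraries. Pou5f1, a core pluripotency factor, ran from 10.3 to 33.3 CPM in the line libraries and from 294 to 455 CPM in the inhibitor series, and Nanog from 260 to 481 CPM and from 128 to 235 CPM. All 8 embryonic stem cell markers were at 1 TPM (the deposited level per transcript length) or more in every library. Of the targeted genes, Dnmt3a was 4.04-fold and Dnmt3b 8.83-fold lower in the Dnmt3a/3b DKO, set against WT J1, and Dnmt1 was 7.34-fold lower in the Dnmt1/3a/3b TKO, where Dnmt3a and Dnmt3b were 3.65-fold and 10.0-fold lower. Ehmt2 was 3.20-fold and 2.59-fold higher in these mutants. Dnmt3b was 2.21-fold higher in the library labelled DKO and 2.96-fold in G9a CM, Dnmt3a was 2.70-fold higher in G9a CM, and Dnmt3b was 2.08-fold lower on day 2. Ehmt1, which encodes GLP, was 4.81-fold lower in the library labelled DKO than in WT TT2. Ehmt2, which encodes G9a, was at 17.9 CPM there and at 14.6 CPM in WT TT2, and a count over the whole gene does not check a deletion of part of it.

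All 10 genes were detected at 1 CPM or more in all 10 libraries. Per length, their summed level was 66.9 TPM in the inhibitor control, 127 TPM in WT TT2 and 254 TPM in WT J1. It was 188 TPM in G9a CM, 168 TPM in the library labelled DKO, 265 TPM in the Dnmt3a/3b DKO, 227 TPM in the Dnmt1/3a/3b TKO and 158, 90.2 and 149 TPM on days 2, 4 and 14 of UNC0638. The leading gene differed between libraries: Hormad1 led in WT TT2 and in the 4 mutant lines, Sycp3 in WT J1, Rec8 in the inhibitor control, Stra8 on days 2 and 14, and Sohlh2 on day 4. In bulk RNA, a few cells with a high level and many cells with a low level cannot be told apart.

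**Figure D1:**
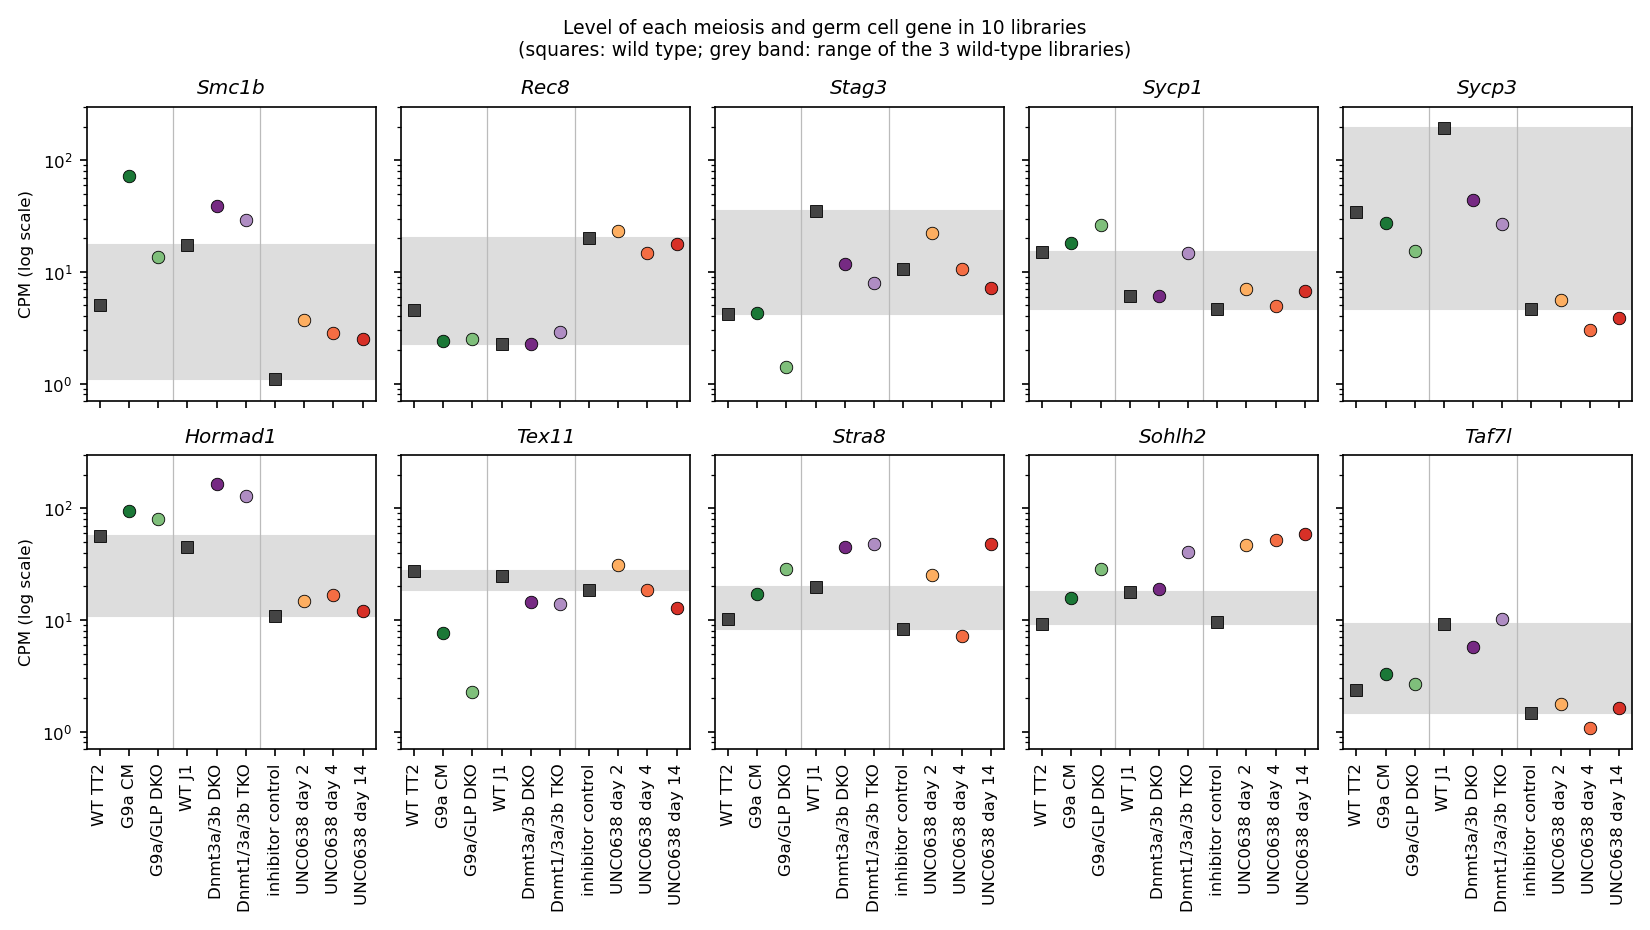
Level of each gene (CPM, log scale) in each of the 10 libraries, with wild-type libraries as squares, mutant and treated libraries as circles, and the range of the 3 wild-type libraries as a grey band. Sohlh2 sat at 46.9 to 59.0 CPM in the 3 UNC0638 libraries, above the band of 9.28 to 18.0 CPM, while Sycp3 varied from 4.63 to 195 CPM among the wild-type libraries alone.

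Of the cohesin genes, Smc1b was highest in G9a CM. Its level was 5.07 CPM in WT TT2, 73.0 CPM in G9a CM and 13.7 CPM in the library labelled DKO. In the J1 lines it was 17.5 CPM in WT J1, 38.7 CPM in the Dnmt3a/3b DKO and 29.4 CPM in the Dnmt1/3a/3b TKO. In the inhibitor series it was 1.10 CPM in the control and 3.72, 2.85 and 2.52 CPM on days 2, 4 and 14. G9a CM and the Dnmt mutants thus stood above all 3 wild-type libraries, whereas the inhibitor series stayed below WT TT2. The level was 14.4-fold higher in G9a CM than in WT TT2 (95% interval 12.0 to 17.4) and 2.70-fold higher in the library labelled DKO (2.14 to 3.42). Against WT J1 it was 2.22-fold higher in the Dnmt3a/3b DKO (1.92 to 2.57) and 1.68-fold higher in the Dnmt1/3a/3b TKO (1.45 to 1.96), the latter short of the size rule. On day 2 of UNC0638 it was 3.37-fold higher than in the inhibitor control (1.92 to 6.33), from 15 counts in the control and 73 on day 2. On the TPM scale that difference was 0.85 (log2) and did not pass.

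Rec8, the meiotic kleisin that closes the ring, split by series and passed the size rule in none of the 7 comparisons of a mutant or treated library with its control. It lay between 2.27 CPM (Dnmt3a/3b DKO) and 4.60 CPM (WT TT2) in the 6 line libraries, with 2.42 CPM in G9a CM, 2.52 CPM in the library labelled DKO, 2.28 CPM in WT J1 and 2.90 CPM in the Dnmt1/3a/3b TKO. In the inhibitor series it was 20.0 CPM in the control and 23.5, 14.9 and 17.7 CPM on days 2, 4 and 14. The lowest of these 4 was 3.23-fold above WT TT2, the highest of the line libraries (2.58 to 4.06). By TPM, without an interval, Rec8 was at 1.41 in the library labelled DKO and 4.21 in WT TT2 (log2 difference -1.11). The deposited intervals of these levels overlapped, at 1.30 to 4.83 and 2.99 to 6.00 TPM, and the former rests on 32 counts. RSEM's mean length of the gene was 2184 bases in the former and 1230 in the latter, so isoform weighting enters the difference.

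Stag3, the meiotic partner that binds the ring, was highest in WT J1. It was at 4.17 CPM in WT TT2, 4.24 CPM in G9a CM and 1.42 CPM (18 counts) in the library labelled DKO, which was 2.94-fold lower than WT TT2 (1.78 to 5.16). With total-count scaling that difference was -0.998 (log2), just short of the threshold. WT J1 had 35.0 CPM, the Dnmt3a/3b DKO 11.8 CPM and the Dnmt1/3a/3b TKO 8.0 CPM, which made the mutants 2.96-fold (2.51 to 3.51) and 4.38-fold lower (3.64 to 5.30). Set against WT TT2 in place of WT J1, the same mutant levels were higher, by 1.31 and 0.80 on the log2 scale. The inhibitor control had 10.7 CPM, and days 2, 4 and 14 had 22.2, 10.7 and 7.10 CPM, with none past the size rule. Day 2 was 2.07-fold higher (1.71 to 2.51), a log2 difference of 0.98 that passed with total-count scaling (1.20) and with a pseudocount of 0.1 CPM (1.04). RSEM weighted the gene's isoforms to a mean length of 928 to 1101 bases in the line libraries and 1865 to 2574 bases in the inhibitor series, so the isoforms that held the reads differed between the series.

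The axis gene Hormad1 was the most highly expressed member in 5 of the 10 libraries and was higher in the Dnmt mutants. It was at 56.4 CPM in WT TT2, 94.0 CPM in G9a CM and 79.5 CPM in the library labelled DKO. The J1 lines had 44.9 CPM in WT J1, 164 CPM in the Dnmt3a/3b DKO and 128 CPM in the Dnmt1/3a/3b TKO. In the inhibitor series the control had 10.9 CPM and days 2, 4 and 14 had 14.8, 16.8 and 12.1 CPM. All 4 mutant lines stood above all 3 wild-type libraries, and the whole inhibitor series stood below WT J1. The Dnmt3a/3b DKO was 3.65-fold higher than WT J1 (3.35 to 3.97) and the Dnmt1/3a/3b TKO 2.86-fold (2.62 to 3.12). G9a CM was 1.67-fold higher than WT TT2 (1.55 to 1.79) and the library labelled DKO 1.41-fold (1.30 to 1.53), neither past the size rule.

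Sycp3, the other axis gene, differed more among the wild-type libraries than any other member did. WT J1 had 195 CPM, WT TT2 34.4 CPM and the inhibitor control 4.63 CPM, a 42.2-fold range among wild-type cells. G9a CM had 27.3 CPM and the library labelled DKO 15.4 CPM, the latter 2.23-fold lower than WT TT2 (1.91 to 2.62). The Dnmt3a/3b DKO had 44.0 CPM and the Dnmt1/3a/3b TKO 26.9 CPM, which was 4.44-fold (4.09 to 4.82) and 7.24-fold lower than WT J1 (6.58 to 7.99). Both Dnmt mutants lay near WT TT2, with log2 differences from it of 0.35 and -0.34. UNC0638 libraries had 5.65, 3.03 and 3.87 CPM on days 2, 4 and 14, none past the size rule. The difference in the library labelled DKO did not pass with total-count scaling (-0.96, log2) or on the TPM scale (-0.89), and it turned to 1.55 when the inhibitor control took the place of WT TT2.

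Sycp1 encodes the transverse filament of the synaptonemal complex. It was at 15.0 CPM in WT TT2, 18.2 CPM in G9a CM and 26.4 CPM in the library labelled DKO, the highest of the 10. WT J1 and the Dnmt3a/3b DKO had 6.04 and 6.09 CPM, and the Dnmt1/3a/3b TKO had 14.6 CPM, 2.42-fold higher than WT J1 (1.90 to 3.11). The inhibitor control had 4.63 CPM, and days 2, 4 and 14 had 7.07, 4.93 and 6.72 CPM. The Dnmt1/3a/3b TKO thus passed the size rule and the Dnmt3a/3b DKO, which keeps Dnmt1, did not. The Dnmt1/3a/3b TKO was close to WT TT2 (log2 difference -0.037), so that call rests on WT J1 as the control.

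Tex11, on the X chromosome, was the gene that was lower in both G9a mutant lines. It was at 27.4 CPM in WT TT2, 7.66 CPM in G9a CM and 2.28 CPM (29 counts) in the library labelled DKO. The J1 lines had 24.9 CPM in WT J1, 14.5 CPM in the Dnmt3a/3b DKO and 13.8 CPM in the Dnmt1/3a/3b TKO, and the inhibitor series had 18.4 CPM in the control and 30.8, 18.7 and 12.9 CPM on days 2, 4 and 14. The 3 wild-type libraries differed by at most 1.49-fold, the narrowest wild-type range of the 10 genes, and both G9a lines fell below it. The library labelled DKO was 12.0-fold lower than WT TT2 (8.29 to 18.1) and G9a CM 3.58-fold lower (2.96 to 4.35), and both were also lower against WT J1 and against the inhibitor control. Dnmt mutants were 1.72-fold (1.46 to 2.03) and 1.80-fold lower than WT J1 (1.53 to 2.13), short of the size rule.

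Stra8 was higher in 5 of the 7 comparisons. It was at 10.3 CPM in WT TT2, 17.1 CPM in G9a CM and 28.5 CPM in the library labelled DKO. WT J1 had 19.9 CPM, the Dnmt3a/3b DKO 45 CPM and the Dnmt1/3a/3b TKO 47.8 CPM. The inhibitor control had 8.30 CPM, and days 2, 4 and 14 of UNC0638 had 25.4, 7.19 and 47.7 CPM. By CPM the day 4 library was therefore the lowest of all 10, between 2 treated libraries that stood above every wild-type library. By TPM, WT TT2 was the lowest at 8.62, with 8.82 on day 4 and 8.85 in the inhibitor control. The library labelled DKO was 2.78-fold higher than WT TT2 (2.36 to 3.27), the Dnmt3a/3b DKO 2.26-fold higher than WT J1 (1.98 to 2.6) and the Dnmt1/3a/3b TKO 2.41-fold (2.11 to 2.75). Day 2 was 3.07-fold (2.5 to 3.80) and day 14 5.74-fold higher than the inhibitor control (4.71 to 7.06), while day 4 was 1.15-fold lower with an interval that held 1 (0.885 to 1.5). Against WT J1, the library labelled DKO differed by 0.50 (log2) and did not pass.

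Sohlh2 was higher at every time of UNC0638. It was at 9.28 CPM in WT TT2, 15.8 CPM in G9a CM and 28.9 CPM in the library labelled DKO. WT J1 had 18.0 CPM, the Dnmt3a/3b DKO 19.0 CPM and the Dnmt1/3a/3b TKO 40.4 CPM. The inhibitor control had 9.55 CPM and days 2, 4 and 14 had 46.9, 52.5 and 59.0 CPM, the 3 highest of the 10 libraries. Folds over the inhibitor control were 4.92 (4.09 to 5.95), 5.5 (4.57 to 6.66) and 6.18 (5.14 to 7.49) on days 2, 4 and 14. Day 4 exceeded day 2 by 1.12-fold (1.02 to 1.23) on this scale, but not by TPM, which was 32.5 on day 2 and 30.0 on day 4, or with total-count scaling, with log2 differences from the control of 2.40 and 2.35. The inhibitor control and WT TT2, between which 6 of the 10 members passed the size rule, had 9.55 and 9.28 CPM here. The library labelled DKO was 3.11-fold higher than WT TT2 (2.64 to 3.68), and the Dnmt1/3a/3b TKO was 2.25-fold higher than WT J1 (1.95 to 2.59). Against WT J1, the library labelled DKO differed by 0.65 (log2) and did not pass. The Dnmt3a/3b DKO was 1.06-fold higher than WT J1 with an interval that held 1 (0.895 to 1.25).

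Taf7l, also on the X chromosome, had the lowest median level of the 10 genes on both scales, 2.52 CPM and 1.83 TPM. It was at 2.36 CPM in WT TT2, 3.30 CPM in G9a CM, 2.68 CPM in the library labelled DKO, 9.13 CPM in WT J1, 5.74 CPM in the Dnmt3a/3b DKO and 10.3 CPM in the Dnmt1/3a/3b TKO. The inhibitor series ran from 1.07 CPM on day 4 to 1.78 CPM on day 2. No comparison of a mutant or treated library with its control passed the size rule. Of the 9 pairs of neighbours in its order of libraries, 7 did not differ beyond counting error, the most for any member. For Smc1b and Hormad1 that held for 2 of 9 pairs each, for Sohlh2 for 3, for Sycp3, Stag3 and Tex11 for 4 each, and for Sycp1, Rec8 and Stra8 for 6 each.

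Counted by comparison, the G9a mutant lines showed members on both sides. In the library labelled DKO, 3 of the 10 genes were higher than in WT TT2 (Smc1b, Stra8 and Sohlh2) against 9.77% of all 14027 genes tested, and 3 were lower (Tex11, Sycp3 and Stag3) against 7.09%. The median log2 difference of the 10 was 0.31, beside 0.04 over all genes tested. In G9a CM, 1 gene was higher (Smc1b) against 5.4% of 13504 genes and 1 was lower (Tex11) against 5.07%, with a median of 0.31 beside -0.027. Both lines were set against the same WT TT2 library.

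The Dnmt mutants shared WT J1 as their control. In the Dnmt3a/3b DKO, 3 genes were higher (Hormad1, Stra8 and Smc1b) against 9.23% of 13743 genes and 2 were lower (Sycp3 and Stag3) against 9.89%, with a median log2 difference of 0.0030 beside 0.0092. In the Dnmt1/3a/3b TKO, 4 genes were higher (Hormad1, Sohlh2, Stra8 and Sycp1) against 11% of 13924 genes and 2 were lower (Sycp3 and Stag3) against 10.6%, with a median of 0.48 beside -0.022. The higher calls of Hormad1 and Stra8 also stood against WT TT2 in both mutants, whereas neither lower call did.

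UNC0638 gave higher calls and no lower ones. On day 2, 3 genes were higher (Sohlh2, Stra8 and Smc1b) against 3.12% of 13294 genes, and 0 of 10 were lower against 1.84%. On day 4, 1 gene was higher (Sohlh2) against 1.95% of 13112 genes, and 0 were lower against 0.671%. On day 14, 2 genes were higher (Sohlh2 and Stra8) against 2.92% of 13269 genes, and 0 were lower against 0.535%. The median log2 differences of the 10 genes were 0.62, 0.0066 and 0.11 on days 2, 4 and 14, beside 0.0076, -0.0026 and 0.0036 over all genes tested. The 3 days shared the inhibitor control, and the G9a mutants and the inhibitor were measured in separate series with different wild-type libraries.

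Between wild-type libraries, 6 and 5 of the 10 members passed the size rule. In the inhibitor control, 2 genes were higher than in WT TT2 (Rec8 by 4.36-fold, 3.50 to 5.46, and Stag3 by 2.57-fold, 1.99 to 3.34) against the 25.2% of all genes, and 4 were lower (Sycp3, Hormad1, Smc1b and Sycp1, by 7.44-, 5.18-, 4.61- and 3.25-fold) against the 22%. In WT J1, 4 genes were higher than in WT TT2 (Stag3, Sycp3, Taf7l and Smc1b, by 8.41-, 5.67-, 3.87- and 3.44-fold) against 12.5% of 13735 genes, and Sycp1 was 2.49-fold lower against 11%. Stra8, Tex11 and Sohlh2 passed the size rule in neither of these comparisons. The median log2 difference of the 10 genes was -0.50 in the first and 0.89 in the second, beside -0.012 and 0.024 over all genes.

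**Figure D2:**
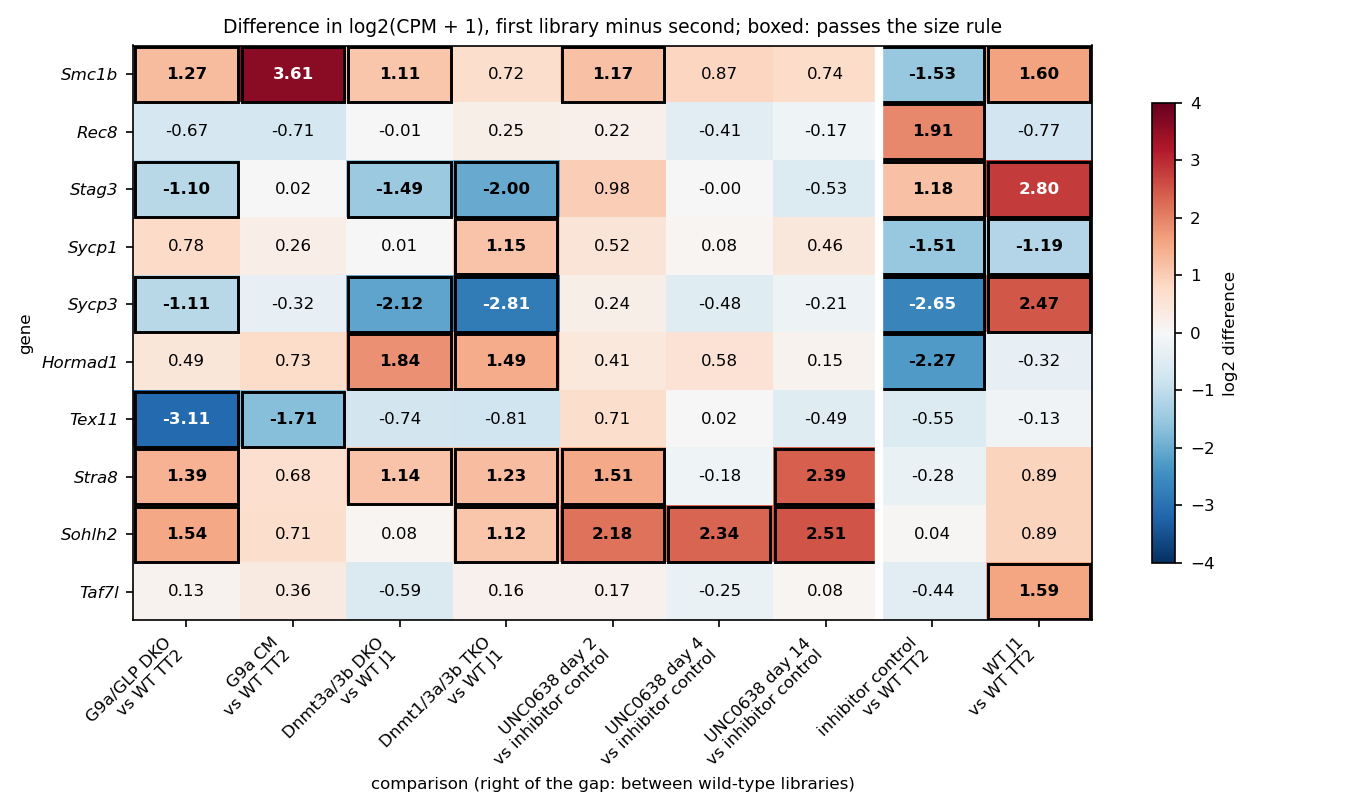
Difference in log2(CPM + 1) of each gene (rows) in each comparison (columns), first library minus second, with boxed cells past the size rule. Red cells for Stra8 and Sohlh2 recur in the mutants and under UNC0638, and reach 2.39 and 2.51 on day 14. The 2 columns at the right show differences between wild-type libraries, such as -2.65 for Sycp3 and at most 0.89 for Stra8 and for Sohlh2.

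The levels were also set against the whole range of the 3 wild-type libraries, with no minimum size of difference. Smc1b, Sycp1 and Hormad1 in G9a CM lay above that range, and Tex11 below it. In the library labelled DKO, Sycp1, Stra8, Hormad1 and Sohlh2 lay above and Stag3 and Tex11 below. Smc1b, Stra8, Hormad1 and Sohlh2 lay above in both Dnmt mutants, joined by Taf7l in the Dnmt1/3a/3b TKO, and Tex11 lay below in both, joined by Rec8 in the Dnmt3a/3b DKO. On day 2 of UNC0638, Rec8, Stra8, Tex11 and Sohlh2 lay above. Day 4 had Sohlh2 above and Sycp3, Stra8 and Taf7l below, and day 14 had Stra8 and Sohlh2 above and Sycp3 and Tex11 below. Of these, the counting interval of the ratio to the nearest wild-type library held 1 for Rec8 and Sohlh2 in the Dnmt3a/3b DKO, Taf7l in the Dnmt1/3a/3b TKO, Stra8 and Taf7l on day 4 and Sycp3 on day 14. Over all genes at 1 CPM or more, 14.9% to 24.2% lay above the range and 15.7% to 24.1% below it in the 7 libraries. This is a description of 10 libraries, in which the width of the range decides what can stand out: it was 1.49-fold for Tex11, 1.94-fold for Sohlh2, 2.39-fold for Stra8, 15.8-fold for Smc1b and 42.2-fold for Sycp3.

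Each germline cohesin gene has a counterpart in dividing somatic cells, and the pair can be compared per length. Smc1b made up 3.58% of the summed TPM of Smc1b and Smc1a in WT TT2. That share was 15.8% in the library labelled DKO and 47.1% in G9a CM. It made up 12.4% in WT J1, 33.7% in the Dnmt3a/3b DKO and 35.8% in the Dnmt1/3a/3b TKO, and 0.916% to 2.59% in the inhibitor series. In G9a CM the 2 transcripts were thus at nearly the same level, 20.2 TPM for Smc1b and 22.7 TPM for Smc1a. Rec8 made up 1.32% to 7.18% of its sum with Rad21 in the line libraries and 25.3% to 34.1% in the inhibitor series, where Rad21 was at 26.8 to 34.3 TPM against 46.5 to 83.7 TPM in the line libraries. Stag3 made up 60.8% of its sum with Stag1 in WT J1, 20.5% in WT TT2 and 10.0% in the library labelled DKO, and 39.0% (day 14) to 61.3% (day 2) in the inhibitor series. Of its sum with Stag2, it made up 74.1% in WT J1, 33.9% in WT TT2 and 14.6% in the library labelled DKO. That share was 55.6% in the Dnmt3a/3b DKO, 55.1% in the Dnmt1/3a/3b TKO and 71.6% to 83.9% in the inhibitor series. The partners were lower in that series: Stag1 was at 5.75 to 9.66 TPM there and 15.0 to 24.3 TPM in the line libraries. Stag2 was at 2.02 to 2.93 TPM and 7.36 to 12.4 TPM. Stag3 itself was at 5.24 to 15.3 TPM in the inhibitor series and 5.29 TPM in WT TT2. RSEM's mean length of Stag3 differed between the series, as given above, and enters these shares. Taf7l stayed at 1.06% to 4.52% of its sum with Taf7, the somatic form. Of the 7 somatic genes listed as counterparts or partners (Smc1a, Smc3, Rad21, Stag1, Stag2, Taf7 and Taf1), 0 were higher or lower in the G9a lines, the Dnmt3a/3b DKO and the 3 UNC0638 libraries. Over all genes tested in these comparisons, 1.95% to 9.77% were higher and 0.535% to 9.89% lower. In the inhibitor control, 5 of the 7 were lower than in WT TT2 (Stag2, Taf1, Rad21, Stag1 and Smc3), against 22% of all genes. Smc1a and Stag2 were 2.24-fold (2.08 to 2.42) and 2.18-fold lower (1.99 to 2.39) in the Dnmt1/3a/3b TKO, where 10.6% of all genes were lower.

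**Figure D3:**
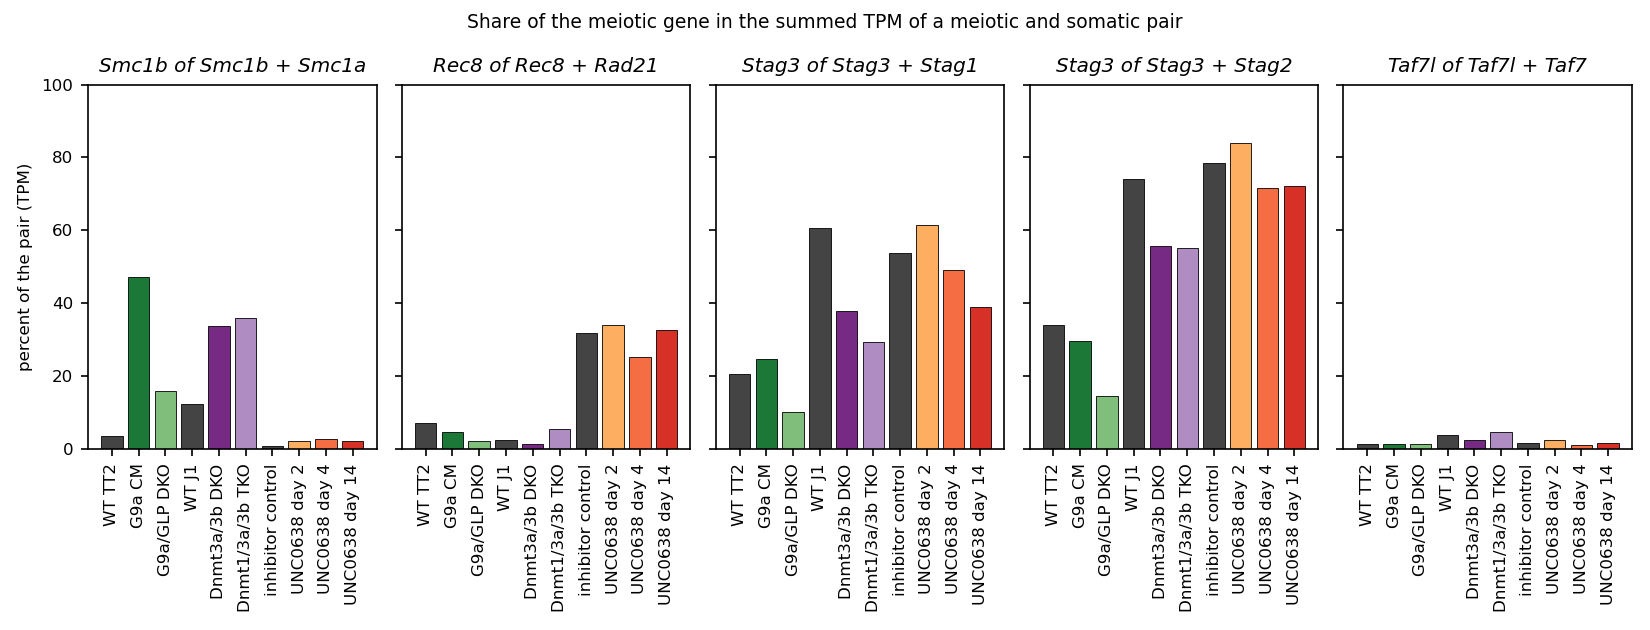
Share of the germline gene in the summed TPM of a germline and somatic pair, in percent, 1 bar per library (dark grey: wild type). Smc1b reached 47.1% of its pair in G9a CM from 3.58% in WT TT2, and Taf7l stayed at or below 4.52% in all 10 libraries.

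Of 12 other listed genes of the axis, cohesin and synaptonemal complex, 11 were found in the tables, and Fkbp6, a chaperone-like protein needed for homologue pairing, stood out in the Dnmt mutants. It was at 1.95 CPM in WT J1, 78.9 CPM in the Dnmt3a/3b DKO and 101 CPM in the Dnmt1/3a/3b TKO, 40.6-fold (28.1 to 60.8) and 51.8-fold higher (35.9 to 77.6). WT TT2 had 13.3 CPM of Fkbp6, and G9a CM was 2.08-fold higher (1.80 to 2.40). Fkbp6 was also higher on day 4 (2.75-fold, 2.08 to 3.69) and day 14 (3.31-fold, 2.51 to 4.43), from 4.77 CPM in the inhibitor control. Syce2, a central element protein, had the highest TPM of this list in every library and was 2.20-fold lower in the library labelled DKO (2.10 to 2.30) and 2.26-fold lower in G9a CM (2.18 to 2.36). Meikin, a regulator of meiotic kinetochores, had 0 counts in WT TT2 and 3.31 CPM in the library labelled DKO, at least 28.0-fold higher against a floor of 3 counts. The counts of this list higher and lower were 1 and 1 of 10 measured in the library labelled DKO, 1 and 2 of 9 in G9a CM, 1 and 1 of 9 in the Dnmt3a/3b DKO and 4 and 0 of 10 in the Dnmt1/3a/3b TKO. Under UNC0638 they were 0 and 0 of 6 on day 2, 2 and 0 of 7 on day 4, and 1 and 0 of 7 on day 14. Over all genes tested, the shares higher and lower were 9.77% and 7.09% in the library labelled DKO, 5.4% and 5.07% in G9a CM, 9.23% and 9.89% in the Dnmt3a/3b DKO, 11% and 10.6% in the Dnmt1/3a/3b TKO, 3.12% and 1.84% on day 2, 1.95% and 0.671% on day 4, and 2.92% and 0.535% on day 14, and the counts of the gene lists that follow are to be read beside these. A gene under 1 CPM in the control is measured only if it is higher, so these counts are not shares of the list.

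Of the genes of meiotic recombination and crossing over, 27 of 31 listed were found, and members of the list moved in both directions. In the library labelled DKO, 0 of 18 measured were higher (9.77% of all genes) and 4 were lower (7.09%), among them Ccdc36 (3.50-fold, 1.79 to 7.61), Mcmdc2 (3.41-fold, 2.28 to 5.27) and Dmc1, the meiotic strand-exchange recombinase (3.10-fold, 2.20 to 4.47). In G9a CM, 2 of 18 were higher, Zcwpw1 by 7.72-fold (6.24 to 9.63) and Meiob by 5.73-fold (3.59 to 9.51), and 2 were lower. The Dnmt3a/3b DKO had 2 of 18 higher and 2 lower, and the Dnmt1/3a/3b TKO 1 of 18 higher and 4 lower. Rec114, a factor for break formation, was 4.81-fold (4.03 to 5.77) and 7.01-fold higher there (5.91 to 8.37), and Dmc1 was 4.46-fold (3.40 to 5.92) and 6.52-fold lower (4.81 to 9.01). On day 2 of UNC0638, 1 of 16 was higher (Rec114, 2.17-fold, 1.82 to 2.6) and 0 were lower. On days 4 and 14, 0 of 16 were higher and 1 was lower, Dmc1 in each case. Spo11, which makes the meiotic breaks, had at most 0.18 CPM in any library. Of 8 listed telomere attachment genes, 7 were found. In each G9a line 0 of 4 measured were higher or lower. Under UNC0638, 0 were higher or lower of 3, 3 and 2 measured on days 2, 4 and 14. In each Dnmt mutant 0 of 6 measured were higher and 2 were lower (Terb1 and Spdya).

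Of the other genes of meiotic entry and germ cell transcription, 16 of 17 listed were found. Dazl, an RNA-binding protein that licenses germ cells for meiosis, was higher in the Dnmt mutants and on day 14. It was at 25.7 CPM in WT J1, 76.5 CPM in the Dnmt3a/3b DKO and 167 CPM in the Dnmt1/3a/3b TKO, 2.98-fold (2.65 to 3.34) and 6.49-fold higher (5.84 to 7.24). The inhibitor control had 6.76 CPM of Dazl and day 14 had 23.0 CPM, 3.40-fold higher (2.70 to 4.33). In each Dnmt mutant 3 of 11 measured were higher (Dazl, Zglp1 and Tcfl5) and 0 lower. The library labelled DKO had 0 of 9 higher and 2 lower (Zglp1 and Meioc), and G9a CM 0 of 10 higher and 1 lower (Mybl1). On days 2, 4 and 14, 0, 0 and 1 of 9 were higher and 0 were lower. Sohlh1, the partner of Sohlh2 in germ cells, had at most 0.32 CPM in any library.

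Retinoic acid induces Stra8 and Rec8 in germ cells, and few of the 10 listed genes of that response were measured. 0 were higher or lower in either G9a line, of 3 and 2 measured. In the Dnmt3a/3b DKO 0 of 6 measured were higher, and in the Dnmt1/3a/3b TKO 2 of 6 were higher, Cyp26a1 and Crabp2. Cyp26a1, which degrades retinoic acid and is a common readout of it, was 6.13-fold lower on day 2 (2.79 to 15.3) and 5.25-fold lower on day 4 (2.39 to 13.1). It was at 2.5 CPM in the inhibitor control, 0.41 and 0.48 CPM on those days and 1.36 CPM on day 14. The part of retinoic acid in the levels of Stra8 was not tested. Dhrs3, an enzyme that lowers retinaldehyde, was 4.36-fold higher on day 2 (2.46 to 8.29). Of the 14 subunits of PRC1.6 and its E2F6 arm, 13 were measured in each G9a line and 14 on each day of UNC0638. In these comparisons 0 were higher or lower. L3mbtl2 was 2.88-fold (2.52 to 3.30) and 3.15-fold higher (2.76 to 3.61) in the Dnmt mutants, where 1 of 13 was higher and 0 lower. E2f6 itself was at 8.26 to 14.7 CPM in the line libraries and at 1.98 to 3.68 CPM in the inhibitor series.

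The members did not follow a common pattern. Over the 45 pairs of members, Pearson's r of log2(CPM + 1) across the 10 libraries had a median of 0.11, from -0.93 (Rec8 and Hormad1) to 0.90 (Smc1b and Hormad1), with 10 pairs above 0.5. These values describe 10 libraries that share 2 series of preparation, and the separation between line and inhibitor-series libraries enters every one of them. Among 12902 genes compared over the 10 libraries, Smc1b was most like Cdkl4, Shf and Morc1 (r = 0.96 each), and Morc1, a germ cell chromatin protein, ran from 83.1 to 462 CPM. Hormad1 was most like Oxsr1 (0.99), Rif1 and Gm20707 (0.98 each). Sycp3 was most like Commd6 (0.995), Ccdc90b and Pir (0.99 each), and Stag3 was most like Mut (0.98), Pcmtd2 and Csnk1a1 (0.93 each), all with their highest level in WT J1. Rec8 was most like Tecpr1 and Evpl (0.997 each) and then Ogfod2 (0.99), highest on day 2 of UNC0638. Sycp1 was most like Gm29361 (0.95), Abhd6 and Zc3hav1 (0.94 each), and Taf7l most like Tceal7, Gm12411 and Gm6123 (0.97 each). Stra8 and Sohlh2 had the weakest nearest genes, 1110002J07Rik (0.91), Lysmd1 (0.84) and Pmepa1 (0.83) for Stra8, and Chrna7 (0.89), Slc22a21 (0.85) and Muc3 (0.84) for Sohlh2. Tex11 was most like Zkscan4, Arhgef28 (0.93 each) and C130036L24Rik (0.92).

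Markers of other cells were low, except those of primordial germ cells, some of which were higher in every mutant and on days 2 and 14 of UNC0638. The 8 spermatid markers summed to between 0 and 1.62 TPM, with Prm2 and Smcp at 0 counts in all 10 libraries. The 8 gonadal somatic markers summed to 2.78 to 9.26 TPM, with Fshr at 0 in all 10 and Amh at 0 in 8, and the 8 fibroblast markers to 2.28 to 6.08 TPM. The 8 primordial germ cell markers summed to 42.0 TPM in WT J1, 525 TPM in the Dnmt3a/3b DKO and 392 TPM in the Dnmt1/3a/3b TKO. None was at 0 in any library. The sum was 845 TPM in WT TT2, above both Dnmt mutants, 737 TPM in the library labelled DKO and highest in G9a CM (1803 TPM). In each Dnmt mutant 3 of the 8 were higher (Dppa3, Tfap2c and Dazl) and 0 lower. In G9a CM, Prdm1 (3.66-fold) and Ddx4 (2.06-fold) were higher, and in the library labelled DKO Prdm1 was (4.33-fold). In neither was a marker past the size rule downward. The counting intervals lay above 1 for 4 markers and below 1 for 3 in G9a CM. In the library labelled DKO they lay above 1 for 4 and below 1 for 4, with a median log2 difference of -0.077. Kit (2.76-fold) and Prdm1 (2.45-fold) were higher on day 2, Prdm1 (2.79-fold) and Dazl on day 14, and 0 of the 8 on day 4. Dppa3, also expressed by embryonic stem cells, led that sum in every library but WT J1, with 4.77 CPM in WT J1, 292 CPM in the Dnmt3a/3b DKO and 549 CPM in WT TT2. The part of such cells in the levels of the members was not tested. Of the 10 members, 6 overlap another gene of the RefSeq table (Smc1b, Sycp1, Sycp3, Stag3, Tex11 and Hormad1), Sycp3 with Chpt1 and Smc1b with Fam118a among them. The labels do not give the strand setting of the counting, so reads of such partners may not be told apart from those of the member.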

How the data were processed

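RNA was extracted as total RNA and made into Smart-seq2 libraries, which amplify full-length cDNA by PCR, per the labels' protocols. The authors aligned reads with STAR 2.5.3a and quantified genes with RSEM on GRCm38 (mm10), per the submitters' processing notes. RSEM's version, the annotation release and the strand setting are not given in the sources used here. Per gene, the deposited files hold expected counts, posterior mean counts and TPM, per the file headers, with RSEM sharing out reads that match several genes. Without molecular identifiers, PCR copies count as separate reads. The 120 other samples of the series were not analysed here.

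Expected counts were rounded and scaled to CPM with TMM factors (edgeR 4.0.16, R 4.3.3) from 15906 genes at 1 CPM or more in at least 1 of the 10 libraries. Differences are of log2(CPM + 1), folds are plain CPM ratios, and intervals are exact 95% conditional binomial (Clopper-Pearson) intervals of the count ratio. The size rule of the report was applied to all genes at once, and it was tested on simulated counts for each of the 9 comparisons. The simulated counts held counting error only, so the effect of PCR copies and of spread between cultures on the rule was not tested. With 1 library a group there is no test between conditions and no p-value. Alternatives were total-count scaling, DESeq2 1.42.0 size factors, a pseudocount of 0.1 CPM, a minimum of 3 CPM or none, deposited TPM, posterior mean counts and other wild-type controls.

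The members and gene lists were chosen with earlier results of these data known. All members were named, with at most 3 genes past the size rule per list and comparison, Pou5f1, Nanog, the somatic counterparts and the 3 most similar genes of each member. Spo11, Sohlh1, E2f6 and Dppa3 were named after their values were seen. Gene IDs were matched to symbols without their version, for 52403 of 52550 genes. Promoter windows came from RefSeq (GRCm38.p6). Lower calls of the retinoic acid list in the Dnmt mutants are not reported here.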

Additional observations from a re-analysis of the deposited data

How the results depend on the processing

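No paired analysis was possible because each group is 1 library and the RNA libraries carry no replicate numbers. Over the 36 differences past the size rule, 252 alternatives on the same libraries left 244 past it in the same direction, took 8 under it and reversed 0, and 29 of the 36 passed under every one. With total-count scaling 1 member was lower in the library labelled DKO. With a pseudocount of 0.1 CPM 2 members were higher on day 4, and Smc1b passed on days 4 and 14. On the TPM scale 1 member was higher in the inhibitor control and 2 in WT J1, each against WT TT2. The choice of the wild-type library changed more, and the counts below are to be read beside the shares of all genes tested: 20.3% to 23.0% higher and 24.3% to 24.5% lower for the G9a lines against the inhibitor control, 15.4% to 17.6% and 16.2% to 16.9% for them against WT J1, 7.93% to 8.24% and 6.33% to 7.07% for the Dnmt mutants against WT TT2, and 26.0% to 27.1% and 21.2% to 22.1% for the UNC0638 days against WT TT2. With the inhibitor control as control, 6 members were higher in the library labelled DKO, where Sycp3 turned to 1.55 (log2), and 4 were higher and 3 lower in G9a CM. With WT J1 as control, 1 was higher and 4 lower in the library labelled DKO, where Smc1b turned to -0.33, and 3 were higher and 4 lower in G9a CM. With WT TT2 as control, 5 were higher and 1 lower in the Dnmt3a/3b DKO, where Sycp3 turned to 0.35 and Stag3 to 1.31. In the Dnmt1/3a/3b TKO 5 were higher and 0 lower, and Sycp1 turned to -0.037 and Stag3 to 0.80. On day 2, 4 were higher and 2 lower, and Smc1b turned to -0.37. On day 4, 3 were higher and 3 lower, and on day 14, 3 were higher and 4 lower. The cause of these shifts was not tested. Of the 25 differences of mutants and treated libraries past the size rule, 15 stood under every other control tried. The G9a lines were set against the inhibitor control and WT J1, but the Dnmt mutants and UNC0638 days only against WT TT2. Depth limits Smc1b in the inhibitor control (15 counts), Stag3 (18) and Tex11 (29) in the library labelled DKO, and Taf7l throughout (18 to 188 counts).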
